A study of Mus musculus with 6 samples.

Results

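The Hox genes of dorsal skin were examined in 6 libraries of the tight skin (TSK) study. They were taken by name: every protein-coding gene of the deposited count table called Hox followed by a cluster letter (a, b, c or d) and a paralogue number. The rule found 39 genes among the 55291 listed, with 11 in Hoxa, 10 in Hoxb, 9 in Hoxc and 9 in Hoxd, and it used no measured value. Bulk RNA was sequenced from shaved whole dorsal skin of 3 TSK mice and 3 wild-type (WT) littermates, all C57BL/6 and labelled 6 to 8 weeks old, with 1 library per mouse. TSK mice carry, on 1 chromosome copy and in every cell, a duplicated stretch of Fbn1, which encodes fibrillin 1 of the microfibrils, and the line is kept by backcrossing to C57BL/6. The labels give all mice as female, whereas the study's methods describe 8-week-old males. Ddx3y, a gene of the Y chromosome, had 1069.9 to 1394 counts in every library and Xist 46.7 to 86.1. The labels name no site on the back, no litter and no dissection batch.

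Hox proteins are transcription factors that bind DNA through a homeodomain. Their genes lie in 4 clusters in the order in which they are used along the body: low paralogue numbers from the hindbrain and neck onward, middle numbers in the trunk, and numbers 9 to 13 toward the lumbar, sacral and tail levels and the ends of the limbs. Genes of the same number in different clusters are called paralogues. Fibroblasts of adult skin keep much of the Hox pattern of the place they come from, so the set of Hox transcripts in a skin sample is widely used as a record of body position. Hoxc13 has a further role in the hair follicle, where it drives hair keratin genes.

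Library totals were 17561453 to 19219814 counts. A total of 3 counts, used here as the floor of detection, corresponded to 0.156 to 0.171 CPM (counts per 1000000 counts of the library). Fbn1 itself was at 267, 289 and 262 CPM in the WT libraries and at 1538, 2284 and 2007 CPM in the TSK libraries, so each library matched its genotype label (edgeR log2 fold change 2.54 ± 0.22 SE, adjusted p = 0.00327). The Hox genes together took 141.3 to 175.8 CPM in WT and 180.6 to 231.8 CPM in TSK. Divided by the TMM scaling factors of the test described below, the sums overlapped, at 172 to 176 CPM in WT and 162 to 205 CPM in TSK. Of the 39 genes, 31 to 33 had a count in a given library.

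To describe which genes of each cluster the skin transcribed, levels were compared per length, as CPM per kilobase of merged exon (CPM per kb). Hoxd8 was the most abundant member, at 11.8 ± 2.15 CPM per kb in WT and 12.1 ± 1.74 in TSK (SD, n = 3). Over all 6 libraries, Hoxa5 followed at 6.05 ± 0.651 (SD), Hoxd9 at 5.71 ± 0.790, Hoxc6 at 5.36 ± 2.23 and Hoxc4 at 4.06 ± 0.505. These 5 genes held 48.0% of the summed mean level of the 39. The ranges of Hoxa5, Hoxd9 and Hoxc6 over the libraries overlapped, so their order was not settled. Hoxc4 (3.42 to 4.70) and Hoxa7, the next gene (2.64 to 5.30), overlapped Hoxc6 and each other. Which genes made up these 5 was thus not settled either. The lowest Hoxd8 value, 9.36, lay below only the Hoxc6 value of TSK 3, 9.58.

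**Figure D1:**
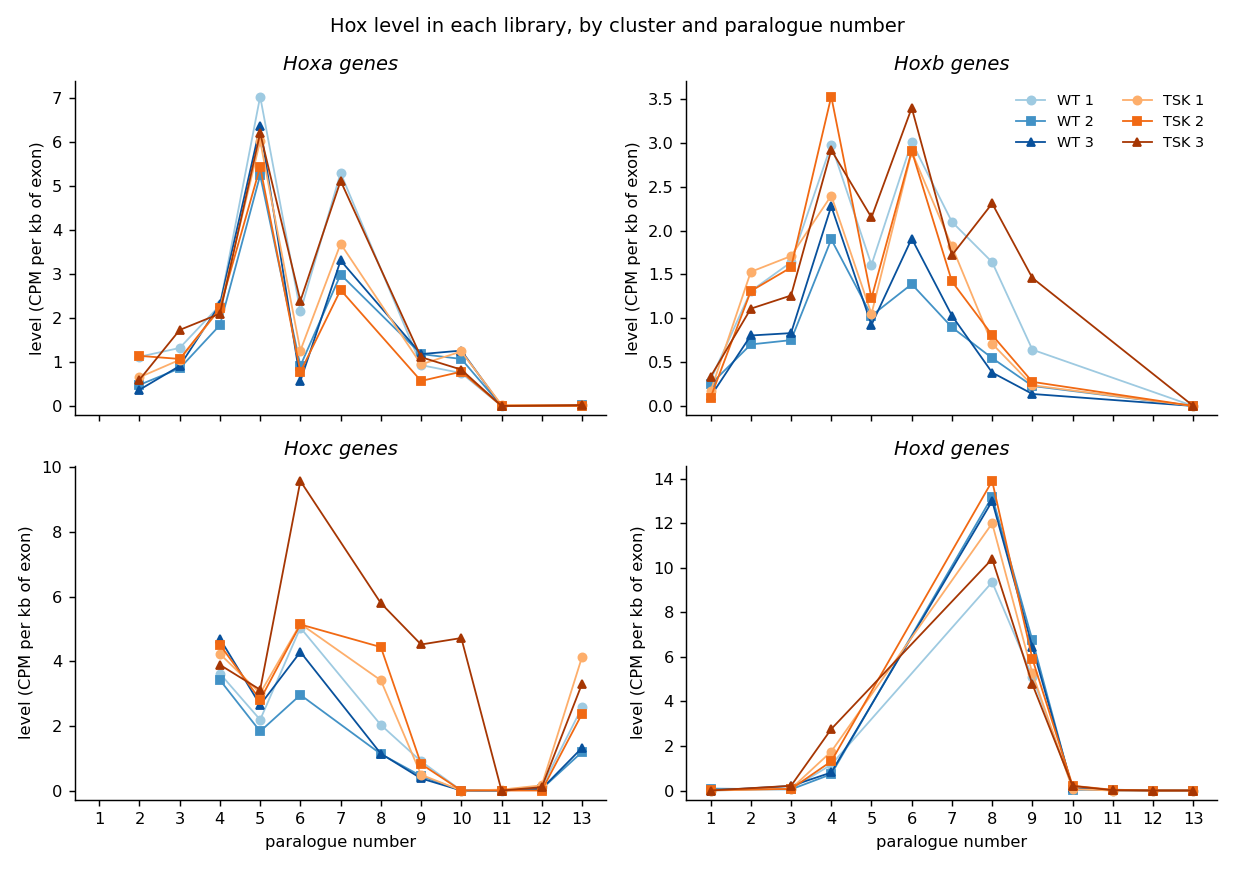
Level of the Hox genes (CPM per kb of exon, vertical axis, scaled separately per cluster) against its paralogue number (horizontal axis), with 1 line per library, blue for WT and orange to brown for TSK; lines join neighbouring points of a cluster. Hoxd8 and Hoxa5 lead their clusters in every library, and the Hoxc10 point of TSK 3 at 4.72 stands alone above the others at 0.

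Within the Hoxd cluster, the level was concentrated in a pair of neighbouring genes. Hoxd8 was at 25.7, 36.1 and 35.7 CPM in WT 1, 2 and 3 and at 33.0, 38.2 and 28.6 CPM in TSK 1, 2 and 3, which is 9.36 to 13.2 and 10.4 to 13.9 CPM per kb. Hoxd9 was at 5.11, 6.75 and 6.45 CPM per kb in WT and at 5.26, 5.91 and 4.77 in TSK. WT 1 and TSK 3 were the lowest libraries for both genes, and the groups overlapped. Hoxd10, the next gene outward, dropped to 0.0293 to 0.213 CPM per kb, and Hoxd11 to at most 0.0383. Hoxd12 and Hoxd13, which pattern the digits and genitalia, had no count in any library. At the other end, Hoxd4 was at 1.16, 0.732 and 0.809 in WT and at 1.75, 1.31 and 2.76 in TSK, Hoxd3 was at 0.0492 to 0.211 and Hoxd1 at 0 to 0.0858.

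In the Hoxa cluster, Hoxa5, which patterns neck and upper thoracic vertebrae and the lung, was at 7.04, 5.25 and 6.36 CPM per kb in WT and at 6.03, 5.44 and 6.21 in TSK. Hoxa7, a thoracic gene, was at 5.30, 2.99 and 3.31 in WT and at 3.69, 2.64 and 5.12 in TSK. WT 1 was the highest library for both. Hoxa4 was nearly level, at 2.29, 1.84 and 2.31 in WT and at 2.21, 2.22 and 2.10 in TSK. Hoxa6, between them on the chromosome, was at 2.15, 0.914 and 0.566 in WT and at 1.26, 0.774 and 2.39 in TSK, so that WT 1 and TSK 3 were again the high libraries. Hoxa2 and Hoxa3 lay between 0.368 and 1.73, and Hoxa9 and Hoxa10 between 0.569 and 1.26. Hoxa11 and Hoxa13, genes of the limb and the tail end, had at most 1.00 count in any library.

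In the Hoxb cluster, no gene was dominant. Hoxb4 was at 2.98, 1.90 and 2.28 CPM per kb in WT and at 2.40, 3.53 and 2.92 in TSK. Hoxb6 was at 3.01, 1.39 and 1.91 in WT and at 2.90, 2.91 and 3.40 in TSK. WT 2 and WT 3 were the lowest libraries for both. Hoxb7 was at 2.10, 0.897 and 1.03 in WT and at 1.82, 1.42 and 1.72 in TSK, and Hoxb5 at 1.61, 1.03 and 0.925 in WT and at 1.05, 1.23 and 2.15 in TSK. WT 2 and WT 3 were the lowest libraries for these as well. Hoxb2 and Hoxb3 ranged from 0.702 to 1.71, Hoxb1, a hindbrain gene, from 0.0957 to 0.334, and Hoxb13 had no count.

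In the Hoxc cluster, which has no gene below number 4, the front genes were broadly expressed. Hoxc4 was at 3.62, 3.42 and 4.70 CPM per kb in WT and at 4.23, 4.51 and 3.89 in TSK. Hoxc5 was at 2.19, 1.83 and 2.65 in WT and at 3.01, 2.81 and 3.12 in TSK. Hoxc6, a marker of the thoracic level, was at 5.04, 2.96 and 4.29 in WT and at 5.16, 5.14 and 9.58 in TSK. All 3 TSK libraries lay above all WT libraries on this scale for Hoxc5 and Hoxc6, but not after the scaling for library makeup used in the test. Hoxc13 stood apart from its neighbours: it was at 2.57, 1.19 and 1.32 in WT and at 4.13, 2.37 and 3.30 in TSK, while Hoxc12 beside it was at 0 to 0.160 and Hoxc11 had at most 1.00 count in any library. The 16 members of highest mean level, all of which are given above or with Hoxc8 below, held 84.1% of the summed level.

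Because paralogues resemble each other most in the homeobox, the stretch of 180 bases that encodes the homeodomain, these stretches were compared to show what reads of 50 bases can tell apart. Hoxc8 and its paralogues are printed because Hoxc8 was the 1 member called between the groups, and Hoxc10 with its paralogues because Hoxc10 was read in a single library. All are from the GENCODE M21 coding exons on GRCm38, lie in 1 exon and are written 5′ to 3′ on the gene's strand, with the 18 bases that encode the conserved core of the DNA-recognition helix in capitals.
Hoxc8, exon 2, chr15:102992571-102992750, + strand: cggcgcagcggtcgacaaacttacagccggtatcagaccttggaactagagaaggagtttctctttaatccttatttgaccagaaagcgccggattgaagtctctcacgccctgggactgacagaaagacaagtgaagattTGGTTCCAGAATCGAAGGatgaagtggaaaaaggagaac
Hoxb8, exon 2, chr11:96284174-96284353, + strand: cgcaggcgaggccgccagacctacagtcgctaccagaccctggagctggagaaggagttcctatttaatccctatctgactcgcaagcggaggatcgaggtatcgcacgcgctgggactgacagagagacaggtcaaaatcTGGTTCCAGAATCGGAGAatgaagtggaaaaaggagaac
Hoxd8, exon 2, chr2:74706525-74706704, + strand: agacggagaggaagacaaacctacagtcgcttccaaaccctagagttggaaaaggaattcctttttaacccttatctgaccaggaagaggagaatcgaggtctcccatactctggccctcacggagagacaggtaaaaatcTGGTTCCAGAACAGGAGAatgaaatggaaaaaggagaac
Hoxc10, exon 2, chr15:102970848-102971027, + strand: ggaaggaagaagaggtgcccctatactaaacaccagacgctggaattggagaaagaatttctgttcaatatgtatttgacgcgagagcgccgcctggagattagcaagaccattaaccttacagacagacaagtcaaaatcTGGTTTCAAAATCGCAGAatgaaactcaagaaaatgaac
Hoxa10, exon 2, chr6:52232554-52232733, - strand: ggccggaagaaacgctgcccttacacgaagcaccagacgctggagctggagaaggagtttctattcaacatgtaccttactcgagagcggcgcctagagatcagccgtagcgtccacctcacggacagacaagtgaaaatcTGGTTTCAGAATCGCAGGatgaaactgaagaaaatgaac
Hoxd10, exon 2, chr2:74694141-74694320, + strand: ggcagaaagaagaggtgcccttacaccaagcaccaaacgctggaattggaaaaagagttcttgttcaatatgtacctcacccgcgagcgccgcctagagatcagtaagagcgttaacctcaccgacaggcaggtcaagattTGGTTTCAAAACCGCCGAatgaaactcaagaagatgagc
Hoxc8 matched Hoxb8 at 80.0% of the bases and Hoxd8 at 73.3%, with no identical run longer than 21 and 15 bases. Hoxc10 matched Hoxa10 at 80.6% and Hoxd10 at 82.8%, with runs of at most 14 and 16 bases. Over all 42 pairs of paralogues the identity was 67.2% to 93.9% and the longest run 47 bases. The longest run between any homeoboxes was 52 bases, between genes of different number, so no paralogue pair shares a stretch as long as a read there.

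More reads could be shared through exons that overlap on the chromosome. Of the exon bases of Hoxd3, 62.3% also belong to Hoxd4 or to the protein-coding model Gm28230, and 52.3% of those of Hoxd4 to Hoxd3 or Gm28230. The estimated counts divide such reads, so Hoxd3 and Hoxd4 are uncertain separately. Hoxc5 and Hoxc10 share 166 exon bases. The strand setting used in counting is not given in the sources used here, and exons of Hoxd3 and Hoxd4 also overlap the antisense gene Hoxd3os1, which was at 2.07 to 3.64 CPM.

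To compare TSK with WT, the 27 members that passed the filter on low counts were tested in the edgeR fit of all 19971 genes, scaled by TMM, a factor per library that limits the weight of a few abundant genes. One member passed an adjusted p of 0.05: Hoxc8 rose in TSK. That is 3.70% of the members tested, beside 2.71% of all genes tested that were called higher. No member was called lower, beside 0.681% of all genes. At an unadjusted p under 0.05, edgeR had 3 members higher (Hoxc8, Hoxd4 and Hoxc13) and 2 lower (Hoxa5 and Hoxd9), beside 12.1% and 7.90% of all genes. At an adjusted p of 0.05 DESeq2 called 1 member higher and 0 lower, beside 5.50% and 1.98% of the 20629 genes to which it gave an adjusted p. The median log2 fold change of the 27 was 0.04, beside -0.03 over all genes. At the study's own thresholds, an adjusted p under 0.01 and a fold above 2.5, edgeR called no Hox gene, beside 0.290% of all genes. DESeq2, the study's tool, called Hoxc8 at those thresholds (log2 fold change 1.41, adjusted p = 2.43e-05), beside 1.82% of all genes. The 12 members not tested had too few counts in too few libraries, Hoxc10 among them.

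Hoxc8 (chr15:102990607-102994111, + strand), a gene of the middle and lower thorax, was at 5.76, 3.19 and 3.24 CPM in WT and at 9.65, 12.6 and 16.4 CPM in TSK. Every TSK library lay above every WT library, and WT 1 was nearest to TSK. The means were 4.06 ± 1.47 in WT and 12.9 ± 3.39 CPM in TSK (SD, n = 3), and the log2 fold change after TMM scaling was 1.40 (SE 0.24, adjusted p = 0.0218), a 2.65-fold rise. With TSK 3 left out it was 1.21 and the call was lost (adjusted p = 0.0527), as it was without WT 2 (adjusted p = 0.0702) or WT 3 (adjusted p = 0.105), all by edgeR. Its log2 fold change was 1.33 without WT 2 and 1.30 without WT 3. No Hox gene was called in either direction without TSK 3, WT 2 or WT 3, beside 1.90%, 1.39% and 0.290% of all genes. Over 16 alternatives the adjusted p ran from 2.43e-05 to 0.105 and the log2 fold change from 1.21 to 1.67.

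Scaling decided some of the smaller differences. The TMM factors were 1.025, 0.823 and 0.886 in WT and 1.063, 1.115 and 1.129 in TSK. On TMM-scaled CPM, 2 of the 27 members had all TSK libraries above all WT libraries (7.41%, beside 14.1% of all genes), and 2 had all below (7.41%, beside 10.6%). Those above were Hoxc8 and Hoxd4, and those below Hoxa4 and Hoxa5. Hoxa4 was at 3.56, 3.56 and 4.16 TMM-scaled CPM in WT and at 3.32, 3.18 and 2.96 in TSK, with a log2 fold change of -0.25 ± 0.19 (SE) and an adjusted p of 0.510 by edgeR. The log2 fold change of Hoxa5 was -0.35 ± 0.14 (SE), with an adjusted p of 0.204 by edgeR. With library totals alone as the scale, the log2 fold changes of Hoxa4, Hoxc4 and Hoxd8 turned from negative to positive, while the median over all genes moved from -0.03 to 0.25.

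**Figure D2:**
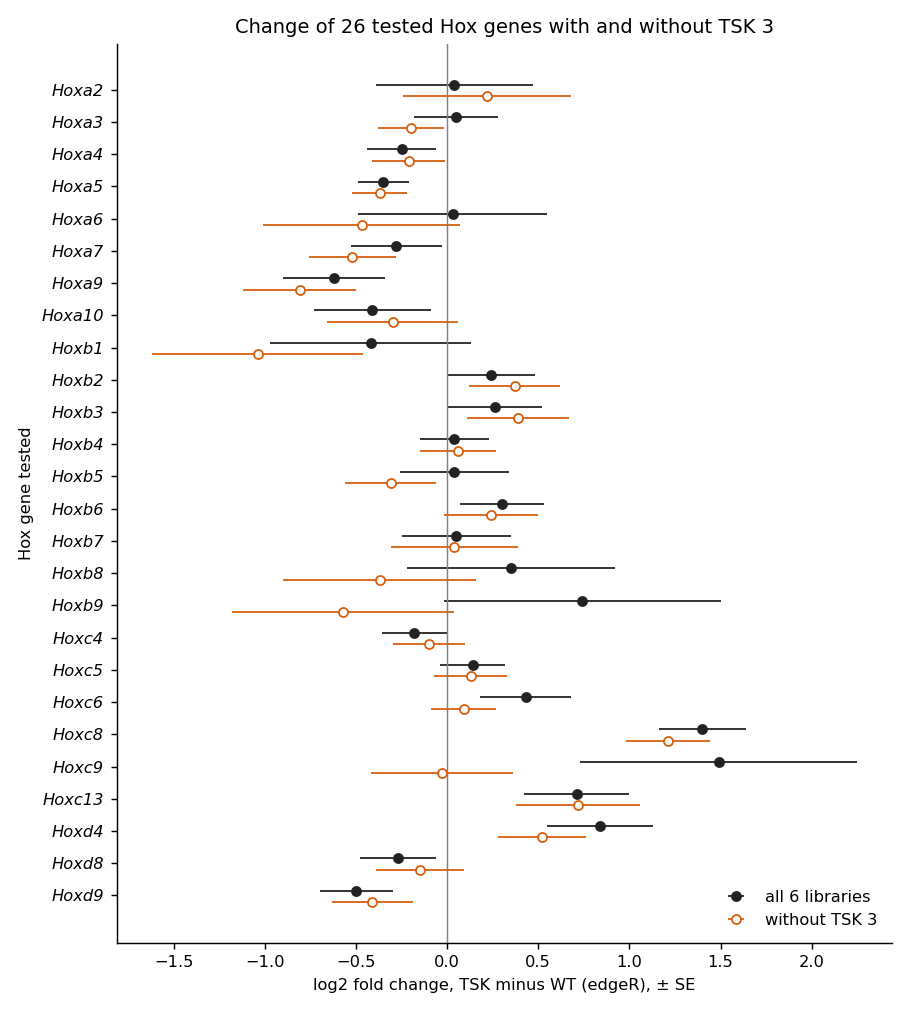
Log2 fold change of TSK minus WT with its SE for 26 of the 27 tested Hox genes (edgeR), with all 6 libraries (filled) and without TSK 3 (open). Hoxc8 keeps a value of 1.21 without TSK 3, while Hoxc9, Hoxb9, Hoxb8, Hoxb5, Hoxa6 and Hoxa3 move from above 0 to below it.

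Hoxd4 (chr2:74711929-74729160, + strand), a gene of the neck and hindbrain border, was at 3.41, 2.16 and 2.39 CPM in WT and at 5.15, 3.85 and 8.13 CPM in TSK. The groups did not overlap, but the difference did not pass (edgeR log2 fold change 0.84 ± 0.29 SE, adjusted p = 0.155). Summed with Hoxd3 and Gm28230, with which it shares exons, the level was 4.27, 2.71 and 3.28 CPM in WT and 6.98, 5.98 and 10.3 CPM in TSK. The sum kept the groups apart, at 3.42 ± 0.787 against 7.75 ± 2.25 CPM (SD, n = 3). Hoxd9 had a log2 fold change of -0.50 (SE 0.20, adjusted p = 0.213) and Hoxa9 of -0.62 (SE 0.28, adjusted p = 0.268), both by edgeR.

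Hoxc13 (chr15:102921103-102928814, + strand) was at 6.32, 2.93 and 3.24 CPM in WT and at 10.2, 5.83 and 8.11 CPM in TSK. The groups overlapped, since WT 1 lay above TSK 2, and the log2 fold change of 0.71 (SE 0.29) did not pass (edgeR adjusted p = 0.227). Of 16 hair follicle markers measured, 12 were tested and 4 were called higher in TSK (2 without TSK 3), beside 2.71% of all genes. Their summed share was 0.00344% to 0.00706% in WT libraries and 0.00883% to 0.00925% in TSK libraries, and their part in the Hoxc13 values was not tested.

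TSK 3 stood apart from the other TSK libraries. Hoxc6, Hoxc8, Hoxc9 and Hoxc10, which neighbour each other, were higher in it than in any other library on CPM. So were Hoxb5, Hoxb6, Hoxb8, Hoxb9, Hoxa3 and Hoxd4, whereas Hoxb7 and Hoxc13 were not. Hoxa6, Hoxb1 and Hoxc5 were highest in it on CPM but not on TMM-scaled CPM. Hoxd3, which was not tested, was highest in it on CPM too. Hoxc10 (chr15:102966796-102971893, + strand), a gene of the lumbar level and the hind limb, had 170.0 counts in TSK 3, or 9.01 CPM (95% exact Poisson interval of the rounded count 145 to 198, counting error only). It had 0 counts in each of the other 5 libraries, where 3 counts would be at most 0.171 CPM, so TSK 3 was at least 52.7-fold higher than that floor in any of them. With 1 library above 0, Hoxc10 was removed by the filter on low counts. Without that filter edgeR gave it an adjusted p of 0.0767, and DESeq2 gave it no p. Hoxc5, with which it shares 166 exon bases, was at 9.29, 8.69 and 9.65 CPM in TSK 1 to 3.

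Hoxc9 (chr15:102976439-102985099, + strand), a gene of the lower thorax, had 38.5, 20.5 and 16.5 counts in WT and 21.6, 38.3 and 207 counts in TSK. TSK 1 and TSK 2 lay inside the WT range and TSK 3 far above it. The log2 fold change of 1.49 ± 0.76 (SE) and an adjusted p of 0.317 by edgeR fell to -0.03 without TSK 3. Hoxc6 was at 12.1, 7.13 and 10.3 CPM in WT and at 12.4, 12.4 and 23.1 CPM in TSK. Its log2 fold change was 0.43 with all libraries (SE 0.25, edgeR adjusted p = 0.395) and 0.09 without TSK 3.

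The same library led in the rear of Hoxb. Hoxb9 (chr11:96271457-96276595, + strand), a thoracic gene, was at 1.65, 0.586 and 0.352 CPM in WT and at 0.607, 0.708 and 3.75 CPM in TSK. Hoxb8 (chr11:96281905-96285315, + strand) was at 4.33, 1.44 and 1.00 CPM in WT and at 1.87, 2.13 and 6.10 CPM in TSK. In both, TSK 3 was highest and WT 1 next, with the remaining 4 libraries below them. The log2 fold changes, 0.74 for Hoxb9 and 0.35 for Hoxb8 (edgeR adjusted p = 0.643 and 0.787), became -0.57 and -0.37 without TSK 3. Gm53, a long non-coding RNA gene beside Hoxb9 (chr11:96251105-96264868, + strand), also had TSK 3 highest and WT 1 next, but TSK 2 lowest. Its level was 5.43, 1.96 and 1.70 CPM in WT and 1.83, 1.49 and 9.59 CPM in TSK. Hoxb13, beyond it, stayed at 0 in all 6.

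**Figure D3:**
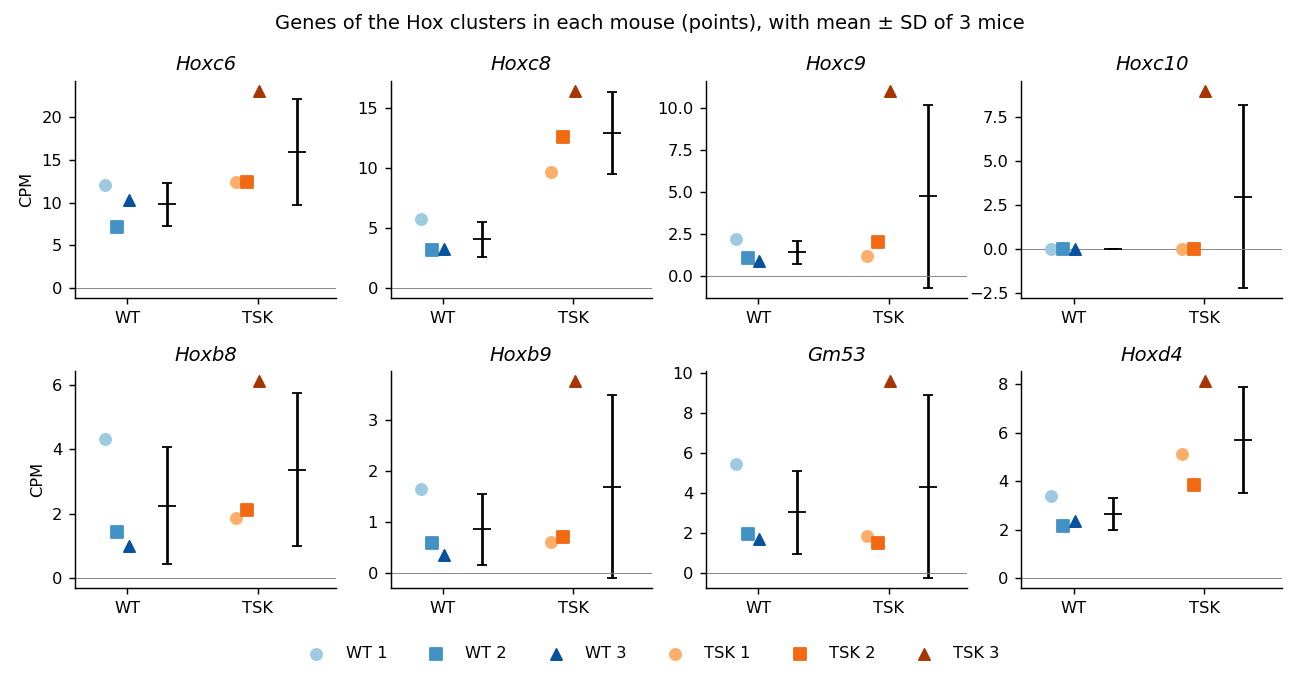
CPM of 8 genes of the Hox clusters in each mouse (points, WT in blue and TSK in orange to brown) with the mean ± SD of 3 mice (black), each panel with its own scale. TSK 3 is the highest library in all 8 panels, and in Hoxc6, Hoxc8 and Hoxd4 the other TSK libraries also lie above all WT libraries, narrowly so in Hoxc6.

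A microRNA gene in the same stretch was read as well. Mir196a-1 lies between Gm53 and Hoxb9, and its mature product miR-196a-5p, which is also made from Mir196a-2 in the Hoxc cluster, represses Hoxb8 through a site in the Hoxb8 transcript. Both sequences are printed to show how far they are complementary. The mature sequence is from RefSeq on GRCm38.p6 with its seed, bases 2 to 8, in capitals, and the site from the GENCODE M21 transcript with the 1 base that is not a Watson-Crick complement in capitals.
miR-196a-5p, from Mir196a-1, chr11:96265187-96265208, + strand: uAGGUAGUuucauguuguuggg
Hoxb8 site after the stop codon, chr11:96284888-96284909, + strand: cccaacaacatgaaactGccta
Of the 22 bases, 21 are Watson-Crick complements, and the exception lies opposite position 5 of the microRNA, counted from its 5′ end. The Mir196a-1 gene had 1.00, 1.00 and 0 counts in WT and 0, 0 and 11 counts in TSK. TSK 3 was thus highest for both the gene and its target Hoxb8. These libraries were not made for small RNA, so the counts are of the gene's region and not of the mature microRNA. Mir196a-2, between Hoxc10 and Hoxc9, had no count in any library.

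Whether TSK 3 stood apart over the whole set or in this stretch was described by counting, for each library, the tested members highest there on TMM-scaled CPM. TSK 3 was highest for 9 of the 27: Hoxa3, Hoxb5, Hoxb6, Hoxb8, Hoxb9, Hoxc6, Hoxc8, Hoxc9 and Hoxd4. WT 1 and WT 3 were highest for 5 each, WT 2 for 4, TSK 1 for 3 and TSK 2 for 1. TSK 3 was also the lowest library for 3. No such count was made over all tested genes, so it cannot show whether this was particular to Hox genes. Hoxa9, Hoxa10 and Hoxd10 were not highest in TSK 3: Hoxa9 was at 5.18, 6.60 and 6.60 CPM in WT and at 5.28, 3.17 and 6.20 in TSK, and Hoxa10 at 2.45, 3.51 and 4.12 in WT and at 4.07, 2.55 and 2.70 in TSK. Hoxd10, the paralogue in Hoxd, had 1.00 to 7.43 counts per library.

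As a summary of how far libraries differed, the root mean square log2 difference over the 27 tested members was 0.96 and 1.00 between TSK 3 and the other TSK libraries, and 0.48 between TSK 1 and TSK 2. Within WT it was 0.42 between WT 2 and WT 3, 0.69 between WT 1 and WT 2 and 0.90 between WT 1 and WT 3. From TSK 3 to WT 1, WT 2 and WT 3 it was 0.68, 1.06 and 1.25, the last 2 being the highest values of all pairs. Without TSK 3, the 6 distances between a TSK and a WT library ran from 0.59 to 0.72, inside the range of those within WT.

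Ratios within a cluster, which no scaling between libraries can move, were used to follow the position pattern. The level of Hoxc8 to Hoxc11 over that of Hoxc4 to Hoxc6 was 0.270, 0.192 and 0.130 in WT and 0.316, 0.422 and 0.906 in TSK, so the groups did not overlap and TSK 3 was highest. This ratio includes Hoxc8, the member called. Hoxc9 over Hoxc4 was 0.249, 0.131 and 0.0795 in WT and 0.115, 0.182 and 1.16 in TSK, with TSK 1 and TSK 2 inside the WT range. For Hoxb8 and Hoxb9 over Hoxb1 to Hoxb4 it was 0.367, 0.215 and 0.129 in WT and 0.163, 0.167 and 0.670 in TSK. There TSK 1 and TSK 2 lay within the WT range and only TSK 3 lay above it. Hoxa9 over Hoxa4 was 0.406, 0.644 and 0.512 in WT and 0.428, 0.256 and 0.531 in TSK, with TSK 3 inside the WT range. Hoxd9 over Hoxd4 was lowest in TSK 3, at 1.73, beside 3.01 and 4.52 in TSK 1 and 2 and 4.41, 9.23 and 7.97 in WT.

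By cluster, the makeup differed between the groups in Hoxc and Hoxa. Hoxc genes held 23.8%, 20.2% and 24.2% of the summed Hox level (CPM per kb) in WT and 29.4%, 28.8% and 38.6% in TSK. The means were 22.7% ± 2.17 and 32.3% ± 5.49 (SD, n = 3), the groups did not overlap, and the difference of 9.52 percentage points was 6.35 without TSK 3. The Hoxc share includes Hoxc8, the member called, at 2.03, 1.13 and 1.14 CPM per kb in WT and 3.41, 4.44 and 5.80 in TSK. It also includes Hoxc13, and no share without these genes was computed. Hoxa genes held 28.8% ± 2.19 in WT and 23.3% ± 1.93 in TSK, again without overlap. The summed Hoxa level itself overlapped, at 21.6, 14.9 and 16.7 CPM per kb in WT and 17.8, 15.1 and 20.7 in TSK, while the total over the 4 clusters was 69.2, 54.5 and 60.2 in WT and 70.1, 69.8 and 90.8 in TSK. Hoxb (16.7% ± 4.60 against 18.3% ± 0.497) and Hoxd (31.8% ± 7.98 against 26.1% ± 5.35) overlapped. These shares are descriptions without a test, and 3 mice against 3 cannot give an exact permutation p below 0.10.

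Position along the clusters was summed up in a single value per library. The mean paralogue number, weighted by level, was 6.34, 6.66 and 6.49 in WT and 6.59, 6.46 and 6.78 in TSK. The means were 6.50 ± 0.159 and 6.61 ± 0.159 (SD, n = 3), a difference below the spread within either group. Leaving out single libraries moved the difference of 0.111 to between 0.0266 (without TSK 3) and 0.192 (without WT 2). Paralogues 4 to 8 held 73.4% to 75.9% of the level in WT and 70.4% to 76.0% in TSK. Paralogues 9 to 13 held 23.2% in TSK 3, against 15.7% to 18.0% in TSK 1 and 2 and 16.1% to 20.2% in WT. This share and the mean paralogue number include Hoxc13, which has a further role in the hair follicle and stood apart from its neighbours. Neither was computed without it. The WT 2 value of 20.2% came from a library with 0 Hoxc10 counts and the highest Hoxd9 level of the 6.

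Summed cell type markers were set beside these values. In bulk tissue, fewer cells of a type and less RNA per cell cannot be told apart. Of 12 fibroblast markers, all tested, 2 were called higher (0 without TSK 3), beside 2.71% of all genes (1.90% in either direction without TSK 3). They took 0.668% to 1.01% of a WT library, 2.15% and 2.12% in TSK 1 and 2 and 4.85% in TSK 3, so the library with the highest Hoxc share also had the highest share of fibroblast marker counts. The 15 adult skeletal muscle markers, of which 0 of 15 tested were called either way (10 at an unadjusted p under 0.05 by edgeR, which 12.1% of all genes passed as higher and 7.90% as lower), took 15.8%, 22.7% and 21.5% in WT and 13.7% to 15.5% in TSK. WT 2 and WT 3, the libraries with the highest muscle marker shares, were also the highest for Hoxd9 and Hoxa9 on CPM (Hoxa9 to equal values). Other lists moved as well, and their calls stand beside 2.71% of all genes called higher (1.90% in either direction without TSK 3). Of 7 adipocyte markers 3 were called higher (5 without TSK 3), and their share was 0.0373% to 0.0475% in WT and 0.0885%, 0.314% and 0.0722% in TSK. Of 7 endothelial markers 1 was called higher (2 without TSK 3), with a share of 0.0126% to 0.0151% in WT and 0.0204% to 0.0376% in TSK. TSK 3 was the lowest TSK library for both lists. The 7 macrophage markers, none of them called by edgeR (5 at an unadjusted p under 0.05, beside the same shares of all genes), took 0.0160% to 0.0244% in WT, 0.0280% and 0.0396% in TSK 1 and 2 and 0.0814% in TSK 3. Of 6 markers of differentiated keratinocytes 1 was called higher, at 0.115% to 0.187% in WT and 0.188% to 0.320% in TSK. The 7 basal keratinocyte and 4 Schwann cell markers overlapped between the groups in their shares, and none was called by edgeR (1 and 2 at an unadjusted p under 0.05, beside these shares too). No marker of these lists was at 0 in all libraries. Their part in the Hox values was not tested.

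**Figure D4:**
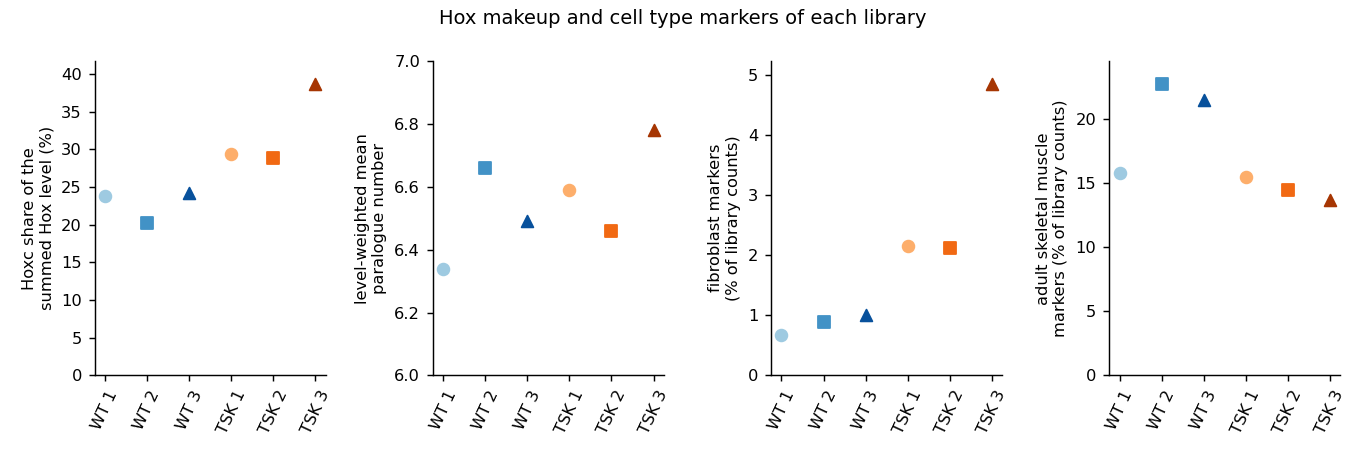
For each library, from left to right: the Hoxc share of the summed Hox level (%), the level-weighted mean paralogue number (axis from 6 to 7), and the summed counts of 12 fibroblast and 15 skeletal muscle markers (% of library counts). TSK 3 is highest in the Hoxc share (38.6%) and the fibroblast markers (4.85%), and the mean paralogue numbers of the groups overlap.

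Genes outside the clusters that work with Hox proteins were compared next. Hox proteins bind DNA together with the TALE cofactors of the Pbx, Meis and Pknox families. Of 9 such genes, all tested, none was called by edgeR (2 at an unadjusted p under 0.05, beside 12.1% of all genes higher and 7.90% lower), and the median log2 fold change was 0.10. The nearest to a call was Meis3, at 2.05, 1.73 and 2.64 CPM in WT and 4.46, 5.26 and 8.08 CPM in TSK (edgeR log2 fold change 1.18 ± 0.28 SE, adjusted p = 0.0593). All TSK libraries lay above all WT libraries. Pknox2 was at 30.0, 40.3 and 34.7 CPM in WT and 28.3, 26.9 and 28.2 CPM in TSK, with a log2 fold change of -0.63 ± 0.18 (SE) and an adjusted p of 0.0982 by edgeR.

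Polycomb proteins keep silent Hox genes silent and trithorax proteins keep active ones active. Of 17 such genes, all tested, 1 was called higher and 0 lower, beside 2.71% and 0.681% of all genes, and the median log2 fold change was 0.01. The gene called was Cbx6, a subunit of the Polycomb repressive complex that reads the histone mark, at 33.7, 29.1 and 32.2 CPM in WT and 51.8, 56.6 and 69.0 CPM in TSK (edgeR log2 fold change 0.62 ± 0.13 SE, adjusted p = 0.0371). Without TSK 3 the adjusted p was 0.0815. Ezh2, the histone methyltransferase of the other complex, was at 20.7, 14.2 and 17.3 CPM in WT and 18.0, 16.5 and 16.6 CPM in TSK. On this scale the groups overlapped, while on TMM-scaled CPM all TSK libraries lay below all WT libraries, at 17.0, 14.8 and 14.8 against 20.3, 17.2 and 19.6 (edgeR log2 fold change -0.29, adjusted p = 0.253). Eed and Ring1 were also lower in all TSK libraries on that scale, with log2 fold changes of -0.21 and -0.28 (edgeR adjusted p = 0.380 and 0.306). Suz12, of the same complex as Ezh2, was at 30.9, 26.9 and 24.7 CPM in WT and 28.9, 35.7 and 24.2 CPM in TSK. TSK 3 was its lowest library.

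Other homeobox, T-box and related genes that mark position in skin and limb were taken as a further list of 26, of which 18 were tested. Of these, 2 were called higher and 0 lower, beside 2.71% and 0.681% of all genes, and the median log2 fold change was 0.56, beside -0.03 over all genes. The log2 fold change was positive for 14 and negative for 4. On TMM-scaled CPM, 8 had all TSK libraries above all WT libraries and 1 all below, beside 14.1% and 10.6% of all genes. Tbx18, a T-box gene of the dermal papilla of the hair follicle, rose from 2.19 ± 0.458 to 6.08 ± 0.904 CPM (edgeR log2 fold change 1.20 ± 0.20 SE, adjusted p = 0.0202, and 0.0477 without TSK 3). Prrx1, a mesenchymal homeobox gene, rose from 60.0 ± 3.67 to 121 ± 20.1 CPM (0.73, SE 0.14, edgeR adjusted p = 0.0304, and 0.0663 without TSK 3). The fibroblast markers, at 0.860% ± 0.176 of a WT library and 3.04% ± 1.56 of a TSK library (SD, n = 3), moved with it, and their part was not tested. En1, which marks the fibroblast lineage of the back that deposits scar tissue, was at 1.20, 1.12 and 2.14 CPM in WT and 3.13, 2.81 and 6.84 CPM in TSK. The groups of En1 did not overlap and TSK 3 was highest, but the difference did not pass (edgeR log2 fold change 1.22 ± 0.42 SE, adjusted p = 0.150). Among genes of the list not called, Twist2, Zic1, Meox2 and Shox2 came nearest, with log2 fold changes of 1.22, 1.32, 0.88 and 0.95. Their edgeR adjusted p were 0.0536, 0.0625, 0.0655 and 0.0808. Tbx15, a T-box gene of dorsal dermis and skeleton, was at 123, 201 and 193 CPM in WT and 126, 116 and 104 CPM in TSK (edgeR log2 fold change -0.88, adjusted p = 0.0976). The forelimb gene Tbx5 was at 1.31, 1.11 and 0.888 CPM in WT and 1.89, 2.85 and 2.48 CPM in TSK (edgeR log2 fold change 0.85, adjusted p = 0.130). The hind limb gene Tbx4 was at 3.82, 1.84 and 3.29 CPM in WT and 2.75, 1.09 and 2.07 CPM in TSK (edgeR log2 fold change -0.85, adjusted p = 0.242). None of these differences passed. Pitx1, also of the hind limb, was at 4.67, 1.81 and 1.81 CPM in WT and 1.10, 0.988 and 2.65 CPM in TSK, so that WT 1 was highest and TSK 3, the library with Hoxc10, next (edgeR log2 fold change -1.04, adjusted p = 0.248). Cdx4 and Otx2, genes of the tail bud and forebrain, had no count in any library.

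Within the cluster spans, 44 non-coding genes were listed, of which 20 had no count in any library and 10 reached 10 counts in some library. The 5 tested were Gm53, Hoxb3os, Hotairm1, Hoxaas2 and Hoxd3os1, and none was called by edgeR, with adjusted p from 0.358 to 0.876. Hotair, a long non-coding RNA between Hoxc11 and Hoxc12, had no count in any library, TSK 3 included. Of the protein-coding genes flanking the clusters, Skap1, beyond Hoxb1, was at 2.15, 0.943 and 0.457 CPM in WT and 1.17, 0.897 and 2.22 CPM in TSK. On CPM TSK 3 was narrowly highest and WT 1 next, an order that the TMM factors (1.129 in TSK 3 and 1.025 in WT 1) would reverse. Hoxb8 and Hoxb9 kept TSK 3 highest on TMM-scaled CPM. The Skap1 log2 fold change of 0.02 (edgeR adjusted p = 0.990) became -0.44 without TSK 3. Skap2, Calcoco1, Smug1 and Mtx2, beside Hoxa, Hoxc and Hoxd, were not highest in TSK 3. Calcoco1 and Smug1, on either side of Hoxc, had log2 fold changes of -0.13 each (edgeR adjusted p = 0.582 and 0.666). Evx1 and Evx2, homeobox genes next to Hoxa13 and Hoxd13, had no count.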

How the data were processed

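Dorsal skin of 3 WT and 3 TSK mice gave libraries depleted of ribosomal RNA, read as single-end reads of 50 bases (stranded kit). The authors aligned reads with STAR to mm10 (GRCm38) and counted genes with Partek Flow on an Ensembl annotation. They deposited estimated counts and CPM, scaled to 1000000 counts per library. The CPM offset of genes without a count was set to 0. Only 43.3% to 45.4% of the non-zero counts were whole (within 0.001), so the counts, expected to be raw when the tests were planned, were rounded before testing.

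Members, gene lists and tests were chosen with earlier results of these data known, and ratios between members after their values were seen. Genes kept by filterByExpr (19971) were tested in edgeR 4.0.16 (R 4.3.3) with TMM, the two-sided quasi-likelihood test and Benjamini-Hochberg adjustment. SEs were derived from each log2 fold change and its F value. CPM per kb used merged exons of GENCODE M21, where all 39 gene starts matched the table. One member that passed the filter is not reported here by its own values but stays in the counts and sums. Reported were the members called and the 16 most abundant in every library, others chosen after their values were seen (Hoxa9, Hoxa10, Hoxb8, Hoxb9, Hoxc9 and Hoxc10) likewise, and the rest by ranges, with Fbn1, cluster and flanking genes and fixed lists. Of 17 hair follicle markers, 16 were in the table. Scripts were tested on simulated data. Alternatives were other scalings, tools (DESeq2 1.42.0, limma 3.58.1), filters, thresholds, a replicate block and each library left out. P-values measure the spread between mice. The labels do not say that replicate numbers mark litters, and deviations of same-numbered libraries correlated at 0.011, 0.167 and -0.094, so the numbers were not taken as pairs.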

Additional observations from a re-analysis of the deposited data

How the results depend on the processing

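With each library left out in turn, the number of Hox genes called higher was 0 to 1, 0 without WT 2, WT 3 or TSK 3 (all genes called higher were 542 with all libraries and 226, 45 and 322 without these), and the median log2 fold change of the tested Hox genes, 0.04 with all libraries, ran from -0.10 to 0.30, the latter without WT 1. At an adjusted p under 0.01 and a fold above 2.5 edgeR called 0 Hox genes in place of 1, whereas DESeq2 at those thresholds, an alternative chosen after seeing the data, called 1 higher and 0 lower, as did edgeR without the low-count filter or with library totals only and limma-trend with either pseudocount. The median was 0.30 with library totals only, 0.25 with limma-trend on log2(CPM + 1) and 0.33 on log2(CPM + 0.1), where the median over all genes was 0.25, 0.20 and 0.25. The cause was not tested. In those fits, in the same order, Hoxa4 turned to 0.02, 0.02 and 0.03, Hoxc4 to 0.11, 0.11 and 0.12, and Hoxd8 to 0.03, 0.04 and 0.04. With limma-voom Hoxb5 was at -7.6e-04. No reversed gene was past the threshold in any fit.

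Leaving out single libraries moved log2 fold changes across 0 for Hoxa2 (-0.31 to 0.55), Hoxa3 (-0.20 to 0.19), Hoxa6 (-0.47 to 0.63), Hoxb4 (-0.11 to 0.15), Hoxb5 (-0.31 to 0.24), Hoxb7 (-0.10 to 0.43), Hoxb8 (-0.37 to 1.11), Hoxb9 (-0.57 to 1.51), Hoxc4 (-0.28 to 0.01) and Hoxc9 (-0.03 to 1.94). Of 416 values for 26 genes under alternatives, 385 kept their direction and side of the threshold. The difference in Hoxc share (9.52 percentage points) ran from 6.35 to 11.3 and that in mean paralogue number (0.111) from 0.0266 to 0.200 over the alternatives, moves of less than 1 SD, and no alternative called a Hox gene lower. With the replicate number as a block, 1 Hox gene was higher and 0 lower, the median was 0.06, Hoxc8 stood at 1.40 (edgeR adjusted p = 0.0325), and no Hox call changed. A count of 3 was the floor, so Hoxc10 below 0.171 CPM was not detectable in the other libraries.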
